A study of Mus musculus with 24 samples.

Results

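The D cyclins, their kinases Cdk4 and Cdk6, the inhibitors of these kinases and the Rb family were followed in 24 mammary tumors of female BALB/c mice. The 10 genes were Ccnd1, Ccnd2, Ccnd3, Cdk4, Cdk6, Cdkn2a, Cdkn2b, Cdkn1b, Rb1 and Rbl1, and every probe that was not a control and carried 1 of these gene names was taken. They had 17 of the 39429 probes on the array, on 26 spots, among 30119 gene names, and each of the 10 genes had at least 1 probe above the signal filter. All mice had been given the carcinogen DMBA by gavage, and every tumor RNA was hybridized to an Agilent array with 2 dyes, together with a reference RNA pooled from mouse cell lines. Mice were fed a high-fat diet of animal fat (HFD) or a low-fat diet (LFD) from weaning on, or were moved in adulthood from the first to the second (HFD-LFD) or from the second to the first (LFD-HFD). By their labels, the arrays held early tumors from HFD (n = 3) and HFD-LFD (n = 3) mice, and late tumors from HFD (n = 6), HFD-LFD (n = 3), LFD (n = 5) and LFD-HFD (n = 4) mice. No early tumor of an LFD or LFD-HFD mouse and no gland without a tumor was analysed here. The samples were whole tumors, in which fewer cells of a type and less RNA per cell cannot be told apart, and the histology of single tumors was not used here. The labels do not say whether the tumors of a group came from separate mice, so p-values measure the spread between these tumors.

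D cyclins bind Cdk4 and Cdk6 when growth signals reach a cell in G1, and the kinases they activate phosphorylate the Rb family of pocket proteins. Phosphorylated pocket proteins release the E2F transcription factors, which switch on the genes of DNA replication. Cdkn2a and Cdkn2b code for INK4 proteins that bind Cdk4 and Cdk6, and Cdkn1b codes for p27, which inhibits cyclin-Cdk complexes more widely. Cyclin D1 is needed for normal growth of the mammary gland and is often overexpressed in breast cancer, whereas cyclin D2 and cyclin D3 are better known from other tissues.

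The 3 genes whose level differed between early and late tumors in the main test were Rbl1, Cdk4 and Cdk6, and their promoters are shown for that reason. RefSeq promoters on GRCm38.p6, from 250 bases before to 50 bases after the start, were found for 7 of the 10 genes in 9 windows, with no entry for Ccnd1, Ccnd2 or Rb1. An E2F motif, spelled TTTCGCGC or TTTGGCGC and searched on both strands, was in 1 of the 9 windows, that of Rbl1, where it began 18 bases before the start. The same motif was in 0.813% of all 32851 promoters of this length. The E-box CACGTG, which is its own reverse complement and was chosen after the Cdk4 sequence had been read, was present 4 times in the Cdk4 window and 1 time in the Cdk6 window. It was in 7.15% of all promoters, and 8 promoters held 4 or more. A match of letters does not show that a factor bound there. The motifs are in capitals in the windows of Rbl1 (chr2:157204485-157204784, minus strand), Cdk4 (chr10:127063285-127063584, plus strand) and Cdk6 (chr5:3343643-3343942, plus strand):
Rbl1: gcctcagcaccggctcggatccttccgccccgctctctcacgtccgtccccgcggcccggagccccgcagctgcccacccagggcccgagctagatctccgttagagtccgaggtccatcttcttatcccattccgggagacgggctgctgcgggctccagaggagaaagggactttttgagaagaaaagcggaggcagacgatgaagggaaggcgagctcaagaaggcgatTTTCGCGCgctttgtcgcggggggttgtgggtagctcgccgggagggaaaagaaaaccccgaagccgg
Cdk4: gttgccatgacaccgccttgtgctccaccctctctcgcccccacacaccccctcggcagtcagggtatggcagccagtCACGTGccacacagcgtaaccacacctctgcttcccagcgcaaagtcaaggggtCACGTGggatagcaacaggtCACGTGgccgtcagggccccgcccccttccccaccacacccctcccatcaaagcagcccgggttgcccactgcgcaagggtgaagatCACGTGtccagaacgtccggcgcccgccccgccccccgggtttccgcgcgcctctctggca
Cdk6: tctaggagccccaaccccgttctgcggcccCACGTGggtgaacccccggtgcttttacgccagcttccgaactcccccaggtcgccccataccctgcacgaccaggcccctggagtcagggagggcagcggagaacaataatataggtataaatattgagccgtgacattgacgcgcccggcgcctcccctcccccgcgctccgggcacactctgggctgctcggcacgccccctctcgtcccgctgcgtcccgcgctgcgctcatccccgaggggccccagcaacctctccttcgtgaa

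On the arrays a gene is read by probes of 60 bases, which were placed on mm9 by the array files. The probe of Ccnd2 (chr6:127098696-127098755, minus strand) is shown because it is the only one of this gene, and the Cdk4 probe with the largest onset difference of its 3 (chr10:126503162-126503221, plus strand) because it lies farthest from the other 2. They read:
Ccnd2: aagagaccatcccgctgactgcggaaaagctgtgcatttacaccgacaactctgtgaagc
Cdk4: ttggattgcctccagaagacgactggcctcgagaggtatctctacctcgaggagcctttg

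Values are log2 ratios of tumor over reference RNA, so they compare a gene between tumors and not genes with each other. The labels put the tumor in cyanine 5 and the methods text puts the reference there, and the ratios here follow the labels, which opposes the direction in the methods text. The choice rested on the cyanine 5 channel, which varied more between arrays (median SD of 0.54 log2 units against 0.20 in cyanine 3) and lay further from the median array on 24 of 24 arrays. In the tumor channel 66.1% to 89.2% of spots per array were well above background. On the 7 arrays of slides 6 and 7, all from late tumors, cyanine 5 was lost in rows of spots at 1 edge, and 16.4% to 20.7% of the spots of these arrays were set missing. Early tumors lay on slides 2 and 4 alone, HFD Early tumors had slide 2 to themselves, and the arrays were read in 3 scan sessions, the last with late tumors alone. Session 1 held the HFD Early tumors beside HFD Late and LFD Late tumors. Session 2 held the HFD-LFD Early tumors beside HFD-LFD Late tumors 1 and 2 and LFD-HFD Late tumor 3. Early against late within a session thus also mixes diets. Within HFD and within HFD-LFD, early and late tumors shared no slide, so slide and onset cannot be told apart there. Epcam, 1 of the luminal epithelial markers, had a mean log2 ratio of 1.86 in early and 1.61 in late tumors. The 11 luminal markers tested had a median log2 difference of -1.82, early minus late, and 2 of the differences were above 0. These ratios do not measure the share of epithelium in a tumor.

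Which of these genes differed with onset was the first question. Rbl1 and Cdk4 were higher in the 6 early tumors than in the 18 late tumors, by 1.64 and 1.40 times. Cdk6 was higher than in the 15 late tumors where it was measured, by a fold that depended on how dim signals were treated, and no gene of the 10 was called lower. The call was a limma fit over 24 arrays with Benjamini-Hochberg adjustment over 20929 genes, at an adjusted p under 0.05. It called 3 of the 10 genes, beside 17% of all genes tested (6.56% in the direction of early tumors and 10.4% in that of late tumors). Without adjustment 5 of the 10 had a p under 0.05, beside 33.2% of all genes. No gene of the 10 had early and late values that did not overlap, which 0.225% of all genes had with the early tumors above and 0.463% with them below. The median log2 difference of the 10 genes was 0.43, against -0.06 over all genes tested, and 8 of the 10 differences were above 0. Centring each array on its median in place of loess moved the median of all genes to 0.22 and the split of calls from 1373 higher and 2184 lower to 4244 higher and 933 lower. Directions below are those of loess, and Rbl1, Cdk4 and Cdk6 were higher under both.

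**Figure D1:**
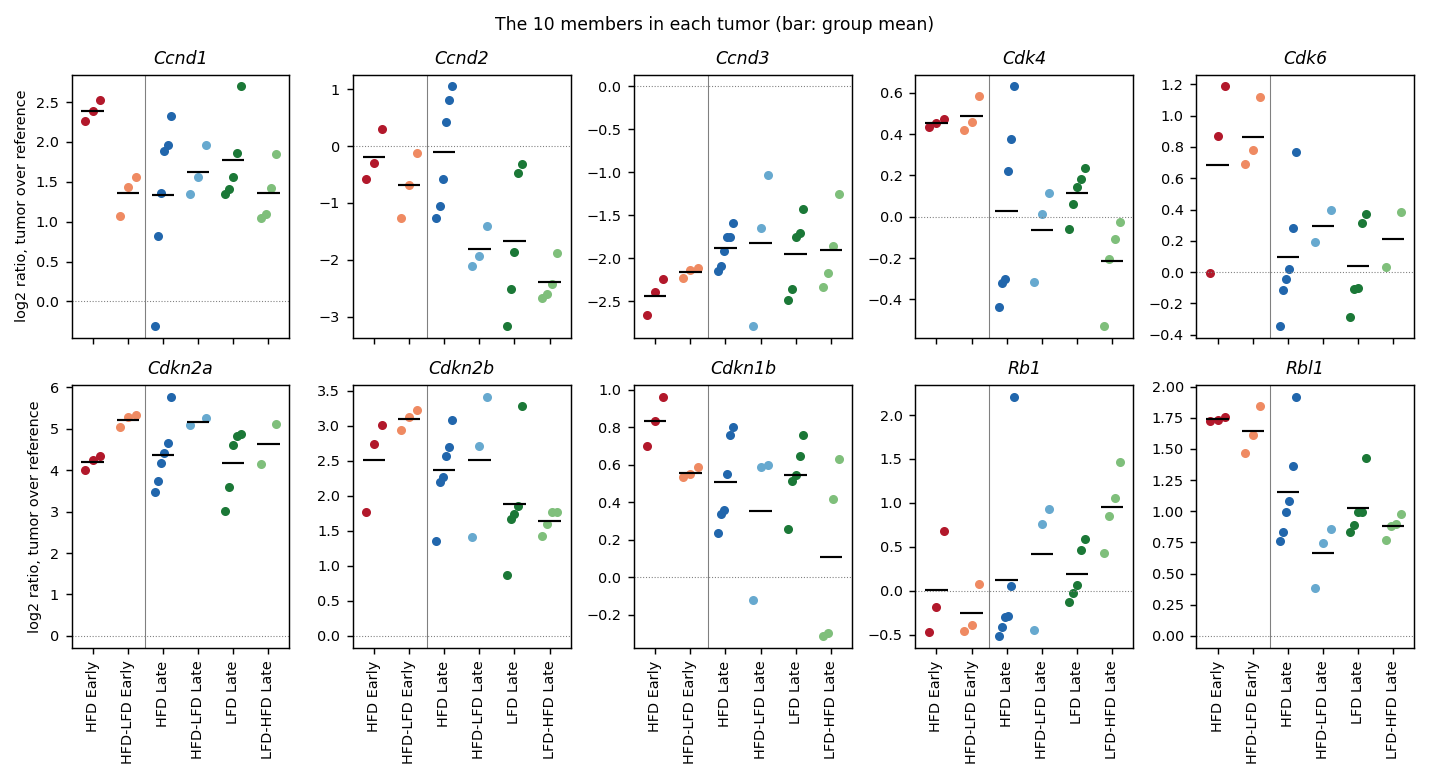
Log2 ratio of tumor over reference RNA (vertical axis) for each of the 10 genes in each tumor (points) of the 6 groups, with early groups to the left of the vertical line and bars at the group means. The 6 early tumors lie close together for Cdk4 (0.42 to 0.59) and Rbl1 (1.47 to 1.84), where 1 late tumor lies above the lowest early one.

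Cdk4 is 1 of the kinases that D cyclins activate. Its log2 ratio was 0.47, 0.44 and 0.45 in the HFD Early tumors and 0.46, 0.42 and 0.59 in the HFD-LFD Early tumors. In late tumors it was 0.01, -0.32 and 0.11 in HFD-LFD, 0.18, -0.06, 0.24, 0.14 and 0.06 in LFD, and -0.53, -0.11, -0.20 and -0.03 in LFD-HFD. The HFD Late tumors ran from -0.44 through a median of -0.04 to 0.63. The early tumors thus shared a narrow range, and of the 18 late tumors only HFD Late tumor 6 lay above the lowest of them. The difference was 0.49 log2 units (SE 0.13, limma adjusted p = 0.0121). It was called with each of the 24 arrays left out in turn. Slide as a random block gave 0.53 with an adjusted p of 0.0531. Within scan session 1 it was 0.40 (adjusted p = 0.133), within session 2 it was 0.66 (adjusted p = 0.0268).

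Its other probes gave the same direction, with more overlap. A probe 105 bases away rose by 0.53 log2 units (limma adjusted p = 0.0235 over all probes) and the probe printed above rose by 0.90 (adjusted p = 0.0319), where 16.4% of 27265 probes were called. Across arrays they had r = 0.89 and r = 0.70 with the first. At the printed probe the HFD-LFD Early tumors had 0.29, 0.0024 and 0.12, and late tumors reached 0.98. The first probe lay in row 368, and on slide 6 the Rb1 spots in rows 365 and 370 stood at -0.42 to -0.24 log2 units relative to the middle of the array. The 4 tumors of that slide are HFD Late tumors 5 and 6, LFD Late tumor 4 and LFD-HFD Late tumor 1. Without the 7 arrays with dimmed rows the difference was 0.48 (adjusted p = 0.00728).

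Cdk6 is the second kinase of the D cyclins. In the early tumors its log2 ratio was -0.004, 0.87 and 1.19 in HFD and 0.69, 1.12 and 0.78 in HFD-LFD. In late tumors it was 0.20 and 0.40 in HFD-LFD, -0.11, -0.10, 0.37, 0.31 and -0.29 in LFD, 0.03 and 0.39 in LFD-HFD, and -0.34 to 0.76 with a median of -0.01 in HFD. Of the early tumors 4 lay above every late tumor, and HFD Early tumor 1, the lowest, lay below 9 of the 15 late tumors measured. The difference was 0.66 log2 units (SE 0.16, limma adjusted p = 0.0100) over 21 arrays, since the spot was in a dimmed row on slide 7. With slide as a random block the adjusted p was 0.0765, and within sessions 1 and 2 the differences of 0.68 and 0.54 had adjusted p of 0.0855 and 0.0660. Cdk6 was dim. The tumor channel was well above background on 3 of 3 arrays in each early group, on 3 of 6 in HFD Late, 1 of 2 in HFD-LFD Late, 3 of 5 in LFD Late and 2 of 2 in LFD-HFD Late, and the reference channel on 0 to 3 arrays of each group. The scanner software's own ratio, with no offset added to dim signals, gave a Cdk6 difference of 2.13 log2 units (adjusted p = 0.00727), in the same direction and of another size.

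Rbl1 codes for p107, a pocket protein that is itself made as cells pass from G1 to S. Its log2 ratio was 1.76, 1.74 and 1.72 in HFD Early tumors and 1.61, 1.47 and 1.84 in HFD-LFD Early tumors. In late tumors it was 0.86, 0.38 and 0.75 in HFD-LFD, 0.89, 0.84, 0.99, 1.43 and 0.99 in LFD, 0.90, 0.88, 0.77 and 0.98 in LFD-HFD, and from 0.76 through 1.04 to 1.92 in HFD. HFD Late tumor 6 was the highest of all, and the other 17 late tumors lay below every early tumor. The difference was 0.71 log2 units (SE 0.14, limma adjusted p = 0.00208), with an adjusted p of 0.0127 with slide as a random block, and it was called within session 1 (0.75, adjusted p = 0.0163) and within session 2 (0.97, adjusted p = 0.0213). Both spots lay in rows 328 and 264, away from the dimmed ones.

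A second Rbl1 probe did not show this. It lay 28618 bases from the first on mm9 (chr2:157000761-157000820 against chr2:156972143-156972202, both on the minus strand). Its mean log2 ratio was -0.27 in early and -0.22 in late tumors, a difference of -0.05 (SE 0.09, limma adjusted p = 0.731 over all probes), and its r with the first probe was 0.12 over 24 arrays. With the mean of both probes the onset difference of Rbl1 was 0.33 log2 units (adjusted p = 0.0225). Which transcripts each probe reads was not resolved, and the call rests on the brighter probe.

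**Figure D2:**
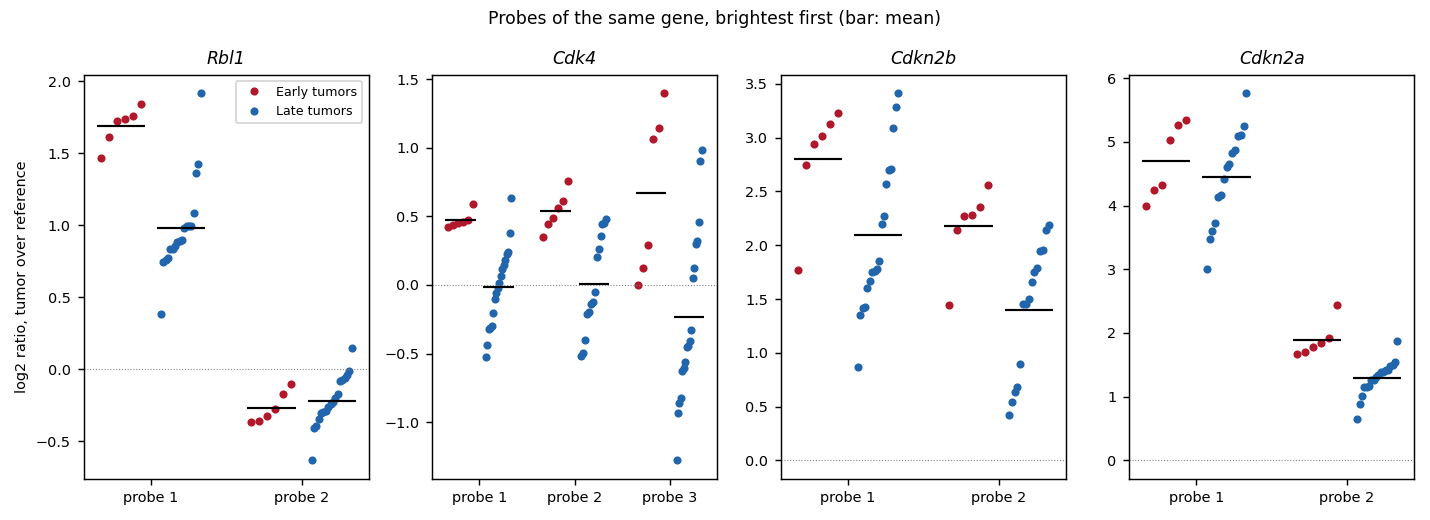
Log2 ratio of tumor over reference (vertical axis) at each probe of Rbl1, Cdk4, Cdkn2b and Cdkn2a, brightest first, with early tumors in red, late tumors in blue and bars at the means. Early means lie above late means at each probe of Cdk4, Cdkn2b and Cdkn2a, with the classes overlapping, and for Rbl1 at the first probe (1.69 and 0.98) but not at the second (-0.27 and -0.22).

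Among the D cyclins none was called between early and late tumors. Ccnd1, the cyclin of mammary epithelium, had a log2 ratio of 2.53, 2.26 and 2.38 in HFD Early tumors and 1.44, 1.08 and 1.56 in HFD-LFD Early tumors. In late tumors it was 1.35, 1.96 and 1.56 in HFD-LFD, 1.56, 2.70, 1.41, 1.35 and 1.87 in LFD, 1.09, 1.43, 1.04 and 1.86 in LFD-HFD, and from -0.30 through 1.62 to 2.33 in HFD. The HFD Early tumors were higher than the HFD-LFD Early ones and all 3 lay above the median of HFD Late, while all 3 HFD-LFD Early tumors lay below the median of HFD-LFD Late. The early groups lay on different slides and in different scan sessions, and the difference between them was not tested. The pooled difference was 0.36 (95% interval -0.23 to 0.95, limma adjusted p = 0.388). The Ccnd1 spot lay in row 392, between Rb1 spots that stood at -0.42 to -0.27 and at -0.88 to -0.80 on slide 6, and leaving those spots out with the stricter limit gave 0.34 (adjusted p = 0.447). Within HFD the difference was 1.05 (SE 0.41, adjusted p = 0.0900), with a sign that none of 37 alternatives changed. HFD Late tumors 5 and 6 lay on slide 6, and this value keeps their Ccnd1 spots, as does the diet contrast below. Without HFD Late tumor 6 the difference within HFD was 1.25 (adjusted p = 0.0348), without HFD Late tumor 4 it was 0.72 (adjusted p = 0.134) and with array weights 0.54 (adjusted p = 0.0641). Within HFD-LFD it was -0.26 (SE 0.47, adjusted p = 0.823). The 2 onset differences were 1.31 apart (SE 0.62, unadjusted p = 0.0470, adjusted p = 0.623). For that contrast 7.99% of all genes had an unadjusted p under 0.05 and none was called.

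Ccnd2 varied more than the other cyclins. Its log2 ratio was 0.30, -0.58 and -0.29 in HFD Early and -0.13, -0.68 and -1.26 in HFD-LFD Early tumors. The late tumors gave -1.94, -2.10 and -1.41 in HFD-LFD, -3.16, -0.48, -1.87, -0.32 and -2.51 in LFD, -2.42, -2.67, -1.87 and -2.59 in LFD-HFD, and -1.26 through -0.07 to 1.05 in HFD. All 6 early tumors lay above the median of the late tumors, and 7 late tumors lay above the lowest early one, so the classes overlapped. The pooled difference was 0.89 (SE 0.50, limma adjusted p = 0.218), that within HFD -0.09 (adjusted p = 0.935) and that within HFD-LFD 1.13 (SE 0.65, adjusted p = 0.425). Within session 2 alone the pooled difference was 1.28 with an adjusted p of 0.0374.

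Ccnd3 is the cyclin of lymphoid cells and muscle among other tissues. Its log2 ratio ran from -2.66 to -2.12 in early and from -2.78 to -1.03 in late tumors, and the 6 early tumors lay below the late median. The difference was -0.41 (SE 0.19, limma adjusted p = 0.127). It was past the threshold with scan session as a block (-0.71, adjusted p = 0.00258), within session 2 (-0.85, adjusted p = 0.0300), without the arrays with dimmed rows (-0.62, adjusted p = 0.0169) and with a stricter limit for such rows (-0.50, adjusted p = 0.0483). With array weights, which called 7652 genes against 3557, it was -0.40 (adjusted p = 0.0314). The lowest late tumor was HFD-LFD Late tumor 3, on slide 7, where the Rb1 spot in row 117 stood at -0.48 to -0.38 log2 units and the Ccnd3 spot lay in row 107. Median centring left -0.04 (adjusted p = 0.900). The other Ccnd3 probe gave -0.19 (adjusted p = 0.621 over all probes), with r = 0.35 over 20 arrays. Within HFD the probes went opposite ways, at -0.56 for the first (limma adjusted p = 0.212 over all probes) and 0.43 for the other (adjusted p = 0.406).

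**Figure D3:**
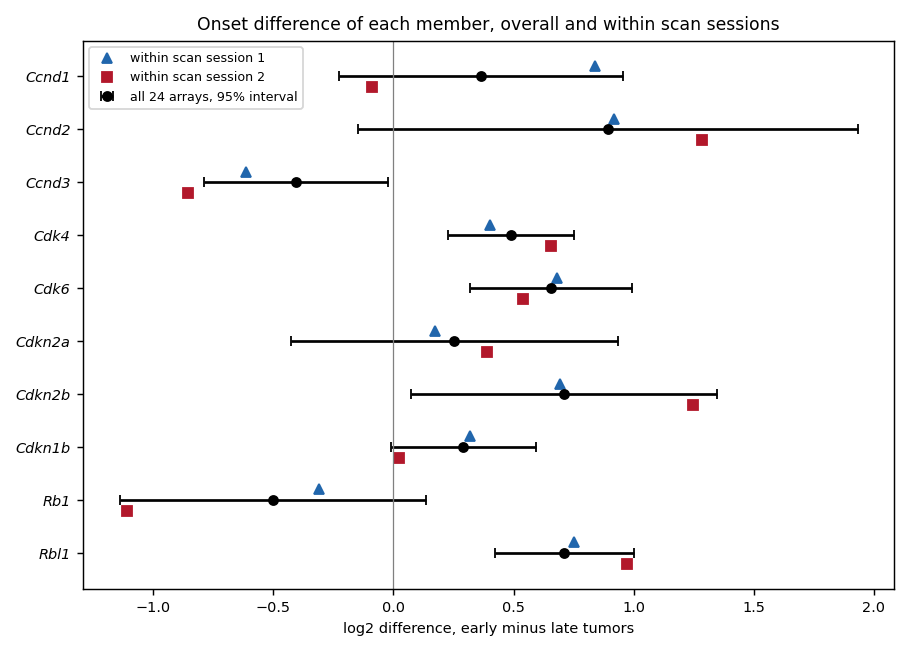
Difference of mean log2 ratio, early minus late tumors (horizontal axis), for each of the 10 genes: black points with 95% intervals for all 24 arrays, triangles within scan session 1 and squares within scan session 2. Cdk4, Cdk6 and Rbl1 lie right of 0 in all 3, and so do Ccnd2, Cdkn2a, Cdkn2b and Cdkn1b, which were not called over all 24 arrays. Ccnd3 and Rb1 lie left of 0, and Ccnd1 on both sides (0.84 and -0.09).

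Cdkn2a and Cdkn2b were above the reference in every tumor where they were measured. Cdkn2a, whose 2 products p16 and p19 act on Cdk4 and Cdk6 and on the p53 pathway, had log2 ratios of 3.01 to 5.77 in the 21 tumors where it was measured. It was 4.24, 4.33 and 3.99 in HFD Early tumors and 5.34, 5.27 and 5.03 in HFD-LFD Early tumors, groups that lay on different slides and in different scan sessions and whose difference was not tested. Group means ran from 4.18 in LFD Late to 5.22 in HFD-LFD Early tumors. Early and late tumors differed by 0.25 (SE 0.33, limma adjusted p = 0.618). Its reference signal was well above background on 1 of 3 HFD Early, 2 of 3 HFD-LFD Early, 6 of 6 HFD Late, 2 of 2 HFD-LFD Late, 5 of 5 LFD Late and 1 of 2 LFD-HFD Late arrays on which the spot was measured. A second probe, which missed the filter because its reference signal was over 10 on 9 arrays, had means of 1.90 in early and 1.29 in late tumors. The r between the probes was 0.10 over 21 arrays.

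Cdkn2b, the INK4 gene next to Cdkn2a that responds to TGF-beta, had log2 ratios of 1.77, 3.02 and 2.74 in HFD Early and 3.13, 3.23 and 2.94 in HFD-LFD Early tumors, and 0.87 to 3.42 in late tumors. Of the early tumors 5 lay above the late median. The difference of 0.71 (SE 0.31) had a limma adjusted p of 0.110 at the brighter probe, and 0.78 (SE 0.26) with an adjusted p of 0.0435 over all probes at the other, which ran with it across 21 arrays (r = 0.92). The first was past the threshold with scan session as a block (0.92, adjusted p = 0.0363) and without the arrays with dimmed rows (0.98, adjusted p = 0.0163). It was also past it with median centring (1.13, adjusted p = 0.0284) and array weights (1.03, adjusted p = 0.00100). These settings called 5177 and 7652 of all genes, against 3557.

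Cdkn1b ran from 0.53 to 0.96 in early and from -0.31 to 0.80 in late tumors, and 2 early tumors lay above every late tumor. The 3 lowest late values, -0.31, -0.30 and -0.12, were those of the 3 arrays of slide 7, where the spot lay in row 104, just outside the rows set missing. The difference was 0.29 (SE 0.15, limma adjusted p = 0.166), and 0.18 (adjusted p = 0.184) with the stricter limit, which leaves those spots out. The other probe, in row 250, gave 0.22 (adjusted p = 0.212 over all probes) and had r = 0.14 with the first.

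Rb1, the founding pocket protein, was measured by 1 probe on 10 spots. Its log2 ratio was 0.68, -0.19 and -0.47 in HFD Early and -0.46, 0.07 and -0.39 in HFD-LFD Early tumors. In late tumors it was 0.93, 0.76 and -0.45 in HFD-LFD, 0.46, -0.13, 0.07, -0.03 and 0.59 in LFD, 0.43, 1.47, 0.85 and 1.06 in LFD-HFD, and from -0.52 through -0.29 to 2.21 in HFD. The LFD-HFD tumors were all above 0, and HFD Late tumor 1 was the highest. The difference was -0.50 (SE 0.31, limma adjusted p = 0.261), and within session 2 it was -1.11 (adjusted p = 0.0133). With array weights, which called 7652 genes against 3557, it was -0.76 (adjusted p = 0.0161). The difference of Rb1 lay below 0 and that of Rbl1 above 0, and the first did not pass the main test.

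**Figure D4:**
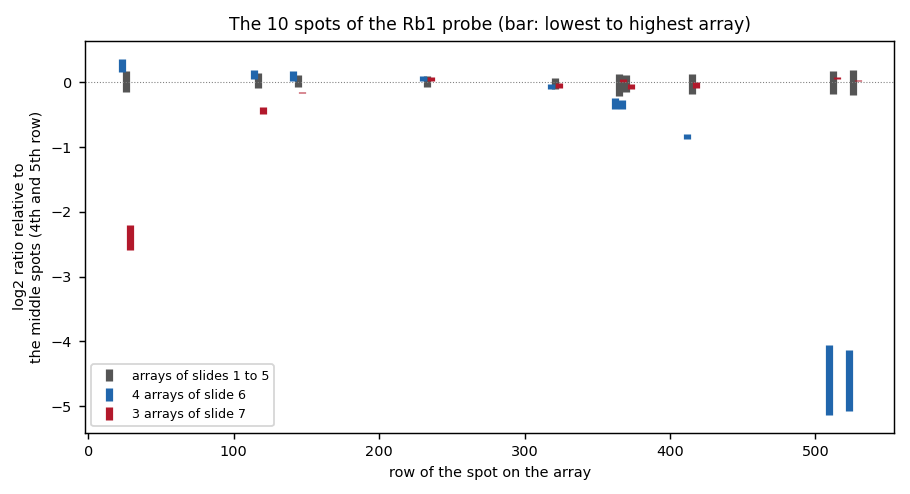
Log2 ratio at the 10 spots of the Rb1 probe, relative to the mean of the middle spots, at the 4th and 5th row of the 10, on the same array (vertical axis), against the row of the spot (horizontal axis), as ranges over the 17 arrays of slides 1 to 5, the 4 of slide 6 and the 3 of slide 7. The same probe stood at -5.13 to -4.06 in rows 512 and 526 of slide 6 and at -2.58 to -2.21 in row 26 of slide 7, spots that were set missing, while rows 365 to 415 of slide 6 (-0.88 to -0.24) and row 117 of slide 7 (-0.48 to -0.38) were kept.

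Onset was also tested with the diet held the same. Within HFD none of the 10 genes was called at its brightest probe, where 12.7% of all genes were (5.61% higher and 7.05% lower). Without adjustment 4 had a p under 0.05, beside 29.6% of all genes. Rbl1 was nearest, with a log2 difference of 0.58 (SE 0.19, limma adjusted p = 0.0535), Cdk6 had 0.59 (adjusted p = 0.128) and Cdk4 0.42 (adjusted p = 0.139). The other Cdk4 probes were past the threshold within HFD, at 0.62 (limma adjusted p = 0.0352 over all probes) and 1.22 (adjusted p = 0.0291). The mean over the Cdk4 probes gave 0.74 (adjusted p = 0.0344 over all genes). The second Rbl1 probe gave -0.15 (adjusted p = 0.479 over all probes). HFD Late tumor 6 was the highest HFD Late tumor for Ccnd1, Cdk4, Cdk6 and Rbl1, and without it all 4 were called, at 1.25, 0.55, 0.72 and 0.73 log2 units. Calls over all genes also rose without this tumor, from 2651 to 3571. Without HFD Early tumor 3 the Cdk6 difference was 0.34 (adjusted p = 0.486), and without HFD Early tumor 1 it was 0.93 (adjusted p = 0.0377). Within HFD-LFD Rbl1 was called, at 0.98 (SE 0.22, adjusted p = 0.0441), where 0.750% of all genes were called and 0.440% called higher. That call was lost in 22 of 37 alternatives, with adjusted p from 0.000761 to 0.220, and with 1 array left out it was kept in 7 of 24 cases. Cdk4 had 0.55 (SE 0.22, adjusted p = 0.235) and Cdk6 0.57 (adjusted p = 0.424). For no gene of the 10 was the difference between the diets called, and for Rbl1 it was -0.40 (95% interval -1.02 to 0.22). The HFD and HFD-LFD contrasts share their estimate of the spread.

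Diet was compared between 9 HFD tumors, 3 of them early, and 5 LFD tumors, and among the 4 late groups. Ccnd2 was the one gene of the 10 with an unadjusted p under 0.05 in either. Its mean log2 ratio was 1.54 higher in HFD than in LFD tumors (SE 0.50, unadjusted p = 0.00832, limma adjusted p = 0.970), a contrast in which 4.32% of all genes had an unadjusted p under 0.05 and none was called. Among late tumors the group means of Ccnd2 ran from -0.10 (SD 0.99) in HFD through -1.67 (SD 1.25) in LFD and -1.82 (SD 0.36) in HFD-LFD to -2.39 (SD 0.36) in LFD-HFD. In this order HFD lay further from LFD, and HFD-LFD further from LFD-HFD, than the larger SD of the pair, and LFD and HFD-LFD did not differ beyond their spread. The moderated F of limma had an adjusted p of 0.0535, where 1.84% of all genes were called and 19.8% had an unadjusted p under 0.05. It passed the threshold without LFD Late tumor 4 (adjusted p = 0.0246), without HFD Late tumor 1 (0.0387), without HFD Late tumor 4 (0.0263) and with array weights (0.000247). Calls over all 20929 genes also rose from 386, to 1032 without LFD Late tumor 4 and to 7032 with array weights. Without the arrays with dimmed rows the F of Ccnd2 had an adjusted p of 0.229. LFD-HFD Late tumors 2 and 4 lay on slide 7, with the Ccnd2 spot in row 107.

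For Cdk4 and Rbl1 both early groups came first, with a gap to the next group larger than the SD of either (0.34 for Cdk4, 0.48 for Rbl1), and neighbouring late groups lay within their spread. The Cdk4 mean of HFD Early lay 0.42 above that of HFD Late, less than the HFD Late SD of 0.44. For Ccnd1, HFD Early tumors (mean 2.39, SD 0.14) stood 0.62 above the next group, and neighbours among the other 5 groups did not differ beyond their spread. For Cdkn2a, Cdkn2b, Cdk6 and Rb1 no neighbouring groups did.

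Other genes of the pathway were read from a list of 24 G1/S regulators. Of 23 tested, 5 were called higher in early tumors, 0 lower, and the median difference was 0.33, against 6.56% called higher and a median of -0.06 over all genes. They were Skp2, which marks p27 for destruction (1.06, limma adjusted p = 0.000767), Cdc25a, a phosphatase that activates Cdk2 (0.76, adjusted p = 0.00296), the E2F family members E2f8 (0.94, adjusted p = 0.0182) and E2f2 (1.16, adjusted p = 0.0327), and Cdk2 (0.68, adjusted p = 0.0262). Within HFD 6 of the 23 were called higher and 2 lower, beside 5.61% and 7.05% of all genes. The 2 lower ones were Cdc37 and Cdkn1c, named here after their values had been seen. Ccne2 was not tested. Of 24 E2F target genes 14 were called higher and 0 lower (median 0.60), among them the cyclin Ccna2 (1.19, adjusted p = 0.00439) and Tyms, which makes thymidylate (0.68, adjusted p = 0.00696). Of 17 proliferation markers 11 were called higher and 0 lower (median 0.84), with the smallest p for Cenpf, a kinetochore protein (0.62, adjusted p = 0.00303) and the topoisomerase Top2a (1.18, adjusted p = 0.00310). The summed level of these markers, as a mean over the 12 measured on all arrays, was 0.05 to 0.99 in early and -1.31 to 0.79 in late tumors, and it was thus higher on average in early tumors, as Rbl1, Cdk4 and Cdk6 were. Its part in their differences was not tested.

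**Figure D5:**
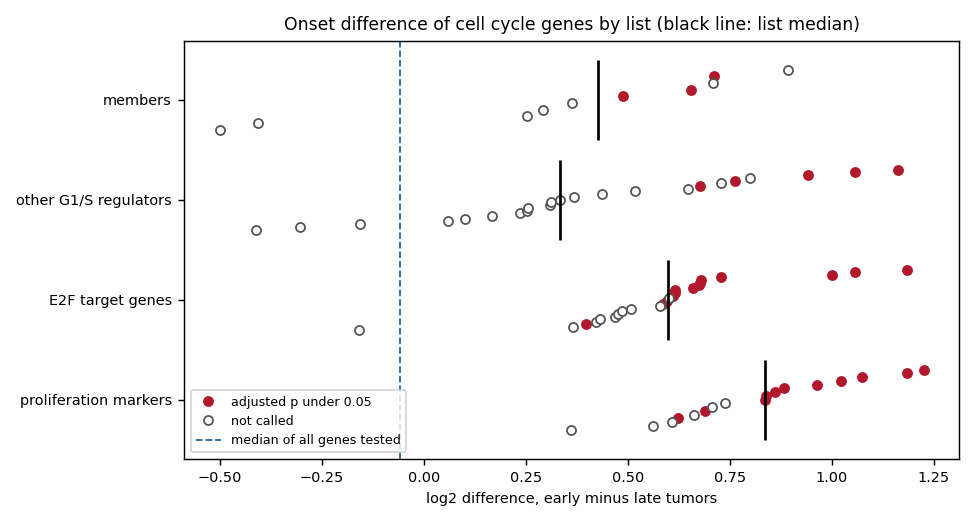
Difference of mean log2 ratio, early minus late tumors (horizontal axis), of each tested gene in 4 lists (rows), filled where called, with a black line at each list's median and a dashed line at the median of all genes tested. Medians are 0.43, 0.33, 0.60 and 0.84, against -0.06 for all genes.

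Markers of cell types moved between the classes as well. Of 11 luminal epithelial markers 6 were called lower in early tumors and 0 higher (median -1.82), and their mean over the 7 measured on all arrays was -0.27 to 2.49 in early and -1.34 to 4.03 in late tumors. Over all genes 6.56% were called higher and 10.4% lower. Adipocyte markers had 0 called higher and 1 lower of 7 (median -0.87, none above 0), T cell markers 0 and 1 of 8 (median -0.84, 1 above 0) and endothelial markers 0 and 1 of 8 (median -0.31, none above 0). Basal epithelial markers had 0 and 1 of 10 (median -0.10), macrophage markers 1 and 0 of 9 (median 0.08) and fibroblast markers 1 and 1 of 10 (median 0.12). Of squamous differentiation genes (11), skeletal muscle genes (8) and B cell markers (5) none was called, with medians of 1.30, -0.45 and -0.13. The part of cell type mixture in the differences of the 10 genes was not tested.

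Relations among the genes were tested over the late tumors alone. For the 6 pairs Ccnd1 with Ccnd2, Ccnd1 with Cdkn2a, Cdkn2a with Cdkn2b, Cdkn2a with Rb1, Cdkn2a with Rbl1 and Cdkn1b with Ccnd1, Pearson's r ran from -0.36 to 0.33 and Spearman's rho from -0.48 to 0.35. The smallest p in a permutation test (100000 permutations, two-sided) was 0.188 for r and 0.0717 for rho, both for Ccnd1 with Cdkn2a over 15 tumors, with adjusted p of 0.674 and 0.430. Leaving out the 2 tumors farthest from the median of Ccnd1 gave r = -0.33 for that pair. None of the 6 passed.

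Across all arrays, as a description with no test and with onset and slide shared by the points, Cdk4 and Rbl1 had the highest r of any pair of the 10 genes (0.77) and Cdkn2b and Rb1 the lowest (-0.67). The genes whose log2 ratio was most like that of Rbl1 over the arrays were Dna2 (r = 0.89, 24 arrays), Fancm (0.89, 24 arrays) and Hus1 (0.88, 21 arrays). Those of Cdk6 were Nkd2 (0.94, 17 arrays), Notum (0.88, 21 arrays) and Add3 (0.87, 21 arrays), and the one named gene among the first 3 of Cdk4 was Dcps (0.89, 20 arrays). For the cyclins they were Atg16l1, Wdr6 and Thnsl1 with Ccnd1 (0.85 to 0.83), Maged1, BC034090 and Dchs1 with Ccnd2 (0.85 to 0.82), and Atp9a, Agap2 and Cmbl with Ccnd3 (0.90 to 0.88). For the inhibitors they were Dus4l, Pnn and Mrpl41 with Cdkn2a (0.87 to 0.84), Sipa1l1, Clec4d and Gli1 with Cdkn2b (0.90 to 0.89), and, of those with a gene name, Pafah1b3 and Ice1 with Cdkn1b (0.85 and 0.83). With Rb1 they were Trf, Stox1 and Wfdc3 (0.85 to 0.83).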

How the data were processed

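Total RNA of 24 mammary tumors was hybridized beside a common reference on Agilent 2-color arrays. The intensities deposited by the authors are the scanner software's mean spot brightness and median local background in each dye, and its background-subtracted intensity, without dye normalization. The deposited log10 ratios of cyanine 5 over cyanine 3 were normalized for dye by the software and were used as an alternative. The labels name Feature Extraction 8.5.1.1 and the file headers 11.0.1.1.

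Groups follow the diet and onset given in the labels. The 10 genes, the gene lists and the tests were chosen with earlier results of these data known. In R 4.3.3 with limma 3.58.1, bands of 10 rows more than 0.5 log2 units below their array's median, and the rows from there to the edge, were set missing. The normexp background correction (offset 50) used spots without an outlier flag, and loess normalized the ratios. Of 39429 probes, 27265 had a signal over 10 in each dye on 80% or more of the arrays where they were measured, and were tested. The methods imputed missing values from 10 nearest neighbours, which was run as an alternative, because imputed and dimmed values would enter the tests as measurements. Gene names came from RefSeq through the accession (27234 probes), the symbol (3576) or an older symbol (565), and otherwise from the array file (8054). The brightest probe stood for a gene, which left 20929 genes.

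Tests were limma fits with Benjamini-Hochberg adjustment over these genes, at 0.05, in place of the significance analysis of microarrays of the methods, which was not used here. Early against late used 24 arrays and 2 classes, HFD against LFD used 14 arrays, and the other contrasts used the means of 6 groups. Named from the lists were up to 10 called G1/S regulators, 2 genes each of the E2F target and proliferation lists by smallest p, and the 3 genes most like each of the 10. Alternatives were other background, normalization, filter, imputation and probe choices, slide and scan session as blocks or subsets, array weights, arrays left out, and, added after the data had been seen, a limit of -0.25 for dimmed rows. On simulated data with 200 of 20929 genes changed by 2 log2 units, 92.5% were recovered for early against late, 84.0% within HFD, 82.0% within HFD-LFD, 69.5% for their difference, 90.5% for HFD against LFD and 85.0% among late groups. These shares hold for changes of 2 log2 units. They do not give the recovery of smaller changes, such as the early against late differences of the 10 genes. Signal on each array and the number of tumors limit the precision. Figures were drawn with matplotlib 3.10.9 in Python 3.11.15.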

Additional observations from a re-analysis of the deposited data

Results flagged for a closer look

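Of 28 sets of values examined, each 1 gene in a group of 4 to 6 tumors, 2 had a tumor far from the others, and chance alone marks about 1 such set in 20. In HFD Late tumors, tumor 1 had an Rb1 log2 ratio of 2.21, with the other 5 between -0.52 and 0.05. In LFD Late tumors, tumor 4 had an Rbl1 log2 ratio of 1.43, with the other 4 between 0.84 and 0.99, and its array was 1 of the 4 with dimmed rows on slide 6.

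The onset difference of Ccnd1 was 1.31 log2 units larger in HFD than in HFD-LFD. It was marked because the interaction contrast of limma had an unadjusted p of 0.0470, and its p adjusted over all genes was 0.623. Early tumors of HFD and of HFD-LFD lay on different slides and in different scan sessions.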

How the results depend on the processing

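Of 2204 values of the 10 genes under the alternatives, 2072 kept their direction and side of the threshold, 27 lost a call, 38 gained one and 67 changed sign, none of the last with a call in the main analysis. The cause of these changes was not tested. Rbl1 was called between early and late tumors in 38 of 38 alternatives, Cdk4 in 36 of 38 and Cdk6 in 34 of 37. Of these alternatives 24 each left out a single array, and none read Rbl1 from its second probe alone, which showed no onset difference.

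Genes of the 10 called between early and late tumors numbered 5 with median centring, 1 with slide as a random block, 5 with scan session as a block, 6 with array weights, 1 within session 1, 5 within session 2, 5 without the arrays with dimmed rows, 4 with the stricter limit for dimmed rows and 2 with dimmed rows kept and imputed, where Cdk6 missed the signal filter and has no value, against 3. Within HFD they numbered 2 with median centring, 1 with the mean over probes, 2 with session as a block, 3 with array weights, 1 within session 1, 1 without the dimmed arrays and 1 with the stricter limit for dimmed rows, against 0. Within HFD-LFD they numbered 0 without background correction, with the scanner software's ratio, with dimmed rows kept and imputed, with the mean over probes and with slide as a random block, 2 with array weights and 2 within session 2, against 1. Among late diets they numbered 3 with array weights, against 0. With array weights 7652 of 20929 genes were called between early and late tumors and 9059 within HFD. Within HFD-LFD 2465 were called with these weights, and among late diets 7032. Counts over all genes for the other settings follow.

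Calls over all genes between early and late tumors were 2366 with dimmed rows kept and imputed, 1609 with slide as a random block and 7652 with array weights, against 3557. They were 5177 with median centring, 5330 with session as a block, 3971 without the dimmed arrays and 3769 with the stricter limit. Within session 1 they were 1533 and within session 2 they were 2486. Within HFD they were 1522 with dimmed rows kept, 251 with slide as a random block and 9059 with array weights, against 2651. There they were 3115 with median centring, 2458 with the mean over probes and 3562 with session as a block. They were 1798 within session 1, 3487 without the dimmed arrays and 2867 with the stricter limit. Within HFD-LFD they were 277 with median centring, 55 with dimmed rows kept, 6 with slide as a random block and 348 with session as a block, against 157. There they were 2465 with array weights, 1648 within session 2 and 447 without the dimmed arrays. They were 128 without background correction, 119 with the scanner software's ratio and 160 with the mean over probes. The difference between the diets had 4 with the scanner software's ratio, 2 with dimmed rows missing and imputed and 736 with array weights, against 0, and HFD against LFD had 8 with array weights, against 0. Among late diets they were 100 with dimmed rows kept, 5 with slide as a random block, 91 with session as a block, 7032 with array weights and 233 without the dimmed arrays, against 386.

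Leaving out each array in turn gave 1956 (without HFD Early tumor 2) to 4393 calls between early and late tumors. Within HFD it gave 965 (without HFD Early tumor 2) to 3571 (without HFD Late tumor 6). Within HFD-LFD it gave 15 (without HFD-LFD Early tumor 1) to 261 (without HFD Late tumor 6). For the difference between these diets it gave 0 to 19 (without HFD Early tumor 3), and for HFD against LFD 0 to 1. Among late diets it gave 142 (without LFD-HFD Late tumor 2) to 1032 (without LFD Late tumor 4). Of the 10 genes it called 3 in each case between early and late tumors, 0 to 4 within HFD, 0 to 1 within HFD-LFD, 0 for the difference, 0 for HFD against LFD and 0 to 1 among late diets.

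Signs changed as follows, in log2 units. Early against late, Ccnd1 was -0.012 with array weights and -0.091 within session 2. Within HFD, Ccnd2 was 0.32 with median centring, 0.073 with the scanner software's ratio, 0.19 with session as a block, and 0.021 within session 1 and without the dimmed arrays. There Cdkn2a was 0.26, 0.78 and 0.15 under the first 3 of these, 0.43 with array weights, and 0.18 within session 1 and without the dimmed arrays, and Rb1 was 0.38 with median centring and 0.078 with dimmed rows kept. Within HFD-LFD, median centring gave Ccnd1 0.26 and Ccnd3 0.17, and Cdkn1b was -0.035 within session 2, without the dimmed arrays and with the stricter limit. For the difference between the diets, Cdk6 was -0.12 with median centring. Ccnd3 was 0.035 with the scanner software's ratio, 0.44 with the mean over probes, 0.051 with session as a block, 0.19 without the dimmed arrays and 0.28 with the stricter limit, Cdk4 was 0.076 with the mean over probes, and Cdkn2a was 0.72 with the scanner software's ratio, 0.10 with session as a block, 0.42 with array weights and 0.13 without the dimmed arrays. For HFD against LFD, Ccnd1 was 0.030 with slide as a random block and 0.076 with array weights, and Cdkn2a was -0.21 with the scanner software's ratio and -0.42 with array weights. With dimmed rows kept and imputed, r was -0.28 for Cdkn2a with Rb1 and 0.00051 for Cdkn2a with Rbl1, from 0.06 and -0.11.

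When single arrays were left out, the differences of these genes changed sign over these ranges. Within HFD they were -0.33 to 0.14 for Ccnd2, -0.36 to 0.098 for Cdkn2a, -0.11 to 0.52 for Cdkn2b and -0.45 to 0.30 for Rb1 (the last without HFD Late tumor 1). Within HFD-LFD they were -0.82 to 0.051 for Ccnd3, -0.030 to 0.14 for Cdkn2a and -0.035 to 0.32 for Cdkn1b. For the difference between the diets they were -0.61 to 0.27 for Ccnd3, -0.23 to 0.36 for Cdk6, -0.41 to 0.053 for Cdkn2a and -0.89 to 0.11 for Cdkn2b. For HFD against LFD they were -0.19 to 0.17 for Ccnd1, -0.25 to 0.015 for Ccnd3, -0.00055 to 0.13 for Cdk4 and -0.17 to 0.30 for Cdkn2a. Within HFD, Cdk6 was also called without HFD Early tumor 1 (0.93) and Rbl1 without LFD Late tumor 4 (0.58).

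No paired analysis was possible because the labels carry no replicate number that tumors of different groups share.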
